A study of Homo sapiens with 6 samples.

Results

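The protein-coding zinc finger genes of human chromosome 19 were examined in thyroid cancer cells with and without *RRM2* overexpression. A gene was a member when the deposited FPKM table gave it the biotype protein_coding, placed it on chromosome 19 and gave it a symbol of ZNF followed by a digit. By this rule 249 of the 58735 genes of the table were members, and the table tagged 239 of them with the classical zinc finger domain. No expression value entered the rule, but it was chosen with earlier results of these data known. The members lay between positions 2819874 and 58481230 of chromosome 19.

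The study asked how *RRM2* overexpression acts on the transcripts of papillary thyroid cancer cells. *RRM2* is the small subunit of ribonucleotide reductase, the enzyme that makes deoxynucleotides for DNA synthesis. The 3 control libraries came from TPC-1 cells, a human papillary thyroid carcinoma line, labelled wild strain with genotype WT. The 3 *RRM2*-OE-TPC-1 libraries came from TPC-1 cells labelled as an *RRM2* overexpression strain, made with a lentivirus (vector LV18) in which the CMV promoter drives full-length *RRM2*, and selected in puromycin. Infection, vector and selection therefore cannot be told apart from *RRM2* itself. The genotype field of *RRM2*-OE-TPC-1 replicate 1 reads *RRM2*, while that of replicates 2 and 3 reads *RRM3* and *RRM4*, so the group was taken from the titles. The series text describes biological triplicates. Whether the *RRM2*-OE-TPC-1 libraries came from separate infections is not given in the sources used here, and the p-values measure only the spread between these libraries. On library preparation the sources differ, with rRNA depletion followed by an RNase R step in the labels and capture of polyadenylated mRNA in the methods. Which of these was applied here was not tested.

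Zinc finger genes of this type encode DNA-binding proteins in which a row of fingers reads a DNA sequence. Many carry a KRAB domain, which binds *TRIM28* (KAP1), and *TRIM28* in turn brings the histone methyltransferase *SETDB1* and heterochromatin protein 1. Through this machinery the proteins silence transposable elements and some genes. Chromosome 19 holds much of the human family in tandem clusters that grew by local duplication, so neighbours in a cluster are often close relatives. Their mRNAs are typically scarce.

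*RRM2* itself was at 9.17, 9.05 and 8.52 FPKM (fragments scaled to gene length and to the read number of the library) in the TPC-1 libraries and at 50.4, 47.5 and 47.1 FPKM in the *RRM2*-OE-TPC-1 libraries. The groups did not overlap, and the log2 fold change was 2.43 (SE 0.0442, limma adjusted p = 1.11e-08). Depth was 14317091 to 17084067 reads on genes per library. Of 8 thyroid follicular markers 3 were expressed at a testable level, led by the transcription factor *PAX8*, and *NKX2-1* was listed at 0 in every library. The summed FPKM of the 8 was 73.9 to 77.8 in TPC-1 and 64.3 to 67.6 in *RRM2*-OE-TPC-1. Of the 3 tested, *PAX8* and *FOXE1* were lower, with log2 fold changes of -0.24 and -0.42, while *HHEX* was higher at 0.87. The 6 epithelial markers summed to 42.9 to 47.1 FPKM in TPC-1 and 88.4 to 90.8 FPKM in *RRM2*-OE-TPC-1, mostly *KRT18*. *KRT18* and *KRT8* were higher, with log2 fold changes of 1.05 and 0.43, while *KRT7* was at -0.21 (limma adjusted p = 0.169). The other epithelial markers were below the testable level. The 4 immune markers summed to at most 0.162 FPKM, the 5 fibroblast markers to at most 0.977 FPKM, and the 3 endothelial markers to 0.873 to 1.05 FPKM in TPC-1, nearly all of it *PECAM1*, and 0.0667 to 0.115 FPKM in *RRM2*-OE-TPC-1. The part of these shifts in the results that follow was not tested.

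Most zinc finger genes of chromosome 19 were expressed at a low level, and 150 of the 249 entered the test. A gene entered with at least 0.5 FPKM and at least 10 reads in at least 3 libraries, the reads being recovered from the FPKM values. Of the 99 members left out, 38 were listed at 0 in all 6 libraries, and their highest value in any library was 0.851 FPKM. Among these 99, 13 had groups that did not overlap, 9 lower and 4 higher in *RRM2*-OE-TPC-1. The median of the 99 was 0.667 reads per library, and the share over all untested genes was not computed. No direction is read from these counts. The tested members averaged 0.490 to 30.5 FPKM with a median of 1.64 FPKM, against a median of 5.50 FPKM over all tested genes. A median of 132 reads per library stood behind a tested member, with a range of 21.7 to 2043. Because 4 members reached the minimum in the libraries of one group and in none of the other, their inclusion depended on that group being higher. These were *ZNF546* and *ZNF221* through TPC-1 and *ZNF850* and *ZNF583* through *RRM2*-OE-TPC-1. *ZNF555* reached it in 3 TPC-1 libraries and 1 *RRM2*-OE-TPC-1 library. *ZNF738*, *ZNF530* and *ZNF91* reached it in 1 TPC-1 library and 3 *RRM2*-OE-TPC-1 libraries. Their inclusion too depended on the group where they were higher. In all 6 libraries 131 members reached the minimum.

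The tested members moved little and in both directions. Log2 fold changes, *RRM2*-OE-TPC-1 against TPC-1 on the log2(FPKM + 0.1) scale, ran from -1.65 to 1.13 with a median of -0.09 and quartiles of -0.32 and 0.20, and 113 of 150 were smaller than 0.5 in size. Values below 0 were found for 91 members (60.7%), against 49.2% of all 13621 tested genes, whose median was 0.01. An adjusted p of 0.05 or less together with a log2 fold change of at least 1 in size was reached by 4 members on the lower side and 2 on the higher, 4.0% of the tested members against 11.5% of all tested genes (6.97% lower and 4.48% higher). With the adjusted p alone 41 members were lower and 31 higher, or 48.0%, where 67.6% of all tested genes were called (32.7% lower and 34.9% higher). Scaling to the library totals gave 52 lower and 21 higher. The groups did not overlap for 52 members on the lower side and 39 on the higher, against 35% and 37.3% of all tested genes. The members were also lower in level than most genes, as given above. Among 1813 tested protein-coding genes whose mean FPKM lay between the quartiles of the tested members, 15.3% passed both thresholds and 61.8% passed the adjusted p, and their median log2 fold change was -0.11. Of these genes 57.8% were below 0, so the lean to lower values was shared by genes of this level. By the adjusted p 37.9% were lower and 23.9% higher, and the groups did not overlap for 42.1% and 28.0%. The median was -0.06 over tested members whose exons overlap no other gene.

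Summed over the 249 members, transcript levels were 411.2, 412.5 and 409.4 FPKM in the TPC-1 libraries and 358.5, 359.8 and 362.9 FPKM in the *RRM2*-OE-TPC-1 libraries. The sum leans on the few members of high level, such as *ZNF358* and *ZNF581*. The mean of log2(FPKM + 0.1) over the 150 tested members, which gives each member equal weight, was 0.90, 0.95 and 0.91 in TPC-1 and 0.83, 0.85 and 0.86 in *RRM2*-OE-TPC-1. Both measures were lower in every *RRM2*-OE-TPC-1 library than in every TPC-1 library. The median FPKM of the tested members did not follow them. It was 1.567, 1.655 and 1.573 in TPC-1 and 1.629, 1.649 and 1.62 in *RRM2*-OE-TPC-1, so the groups overlapped. The mean of log2(FPKM + 0.1) over all tested genes was also lower in *RRM2*-OE-TPC-1, at 2.44 in each of the 3 libraries against 2.47 to 2.48 in TPC-1.

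**Figure D1:**
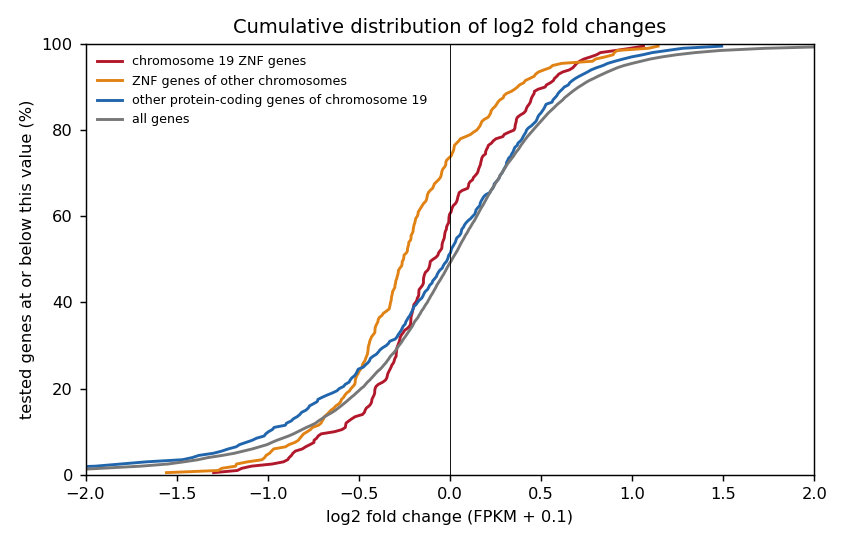
Cumulative share of tested genes (y axis, %) at or below each log2 fold change (x axis, cut off at both ends) for 150 chromosome 19 ZNF genes, 199 ZNF genes of other chromosomes, 635 other protein-coding genes of chromosome 19 and all 13621 tested genes. The curve of the chromosome 19 ZNF genes crosses 0 at 60.7% and is steeper than that of all genes, and the ZNF genes of other chromosomes cross 0 at 73.4%.

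ZNF genes elsewhere in the genome had a median further below 0, as the plot of cumulative shares shows. Of the 265 protein-coding ZNF genes on other chromosomes 199 were tested. Their median log2 fold change was -0.26 and their median level 3.05 FPKM. By the adjusted p 102 were lower (51.3%) and 26 higher (13.1%), and past both thresholds 10 were lower (5.0%) and 3 higher (1.5%). The other 635 tested protein-coding genes of chromosome 19 had a median of -0.01 and a median level of 10.1 FPKM. Of these, 236 were lower (37.2%) and 225 higher (35.4%) by the adjusted p, and 63 lower (9.9%) and 19 higher (3.0%) past both thresholds. Of the 15 chromosome 19 genes of the related symbols ZFP, ZSCAN, ZIM, ZIK and ZKSCAN, 6 were tested, 1 was lower by the adjusted p and none reached a log2 fold change of 1 with it. The median of the chromosome 19 ZNF genes lay between that of the other genes of their chromosome and that of ZNF genes elsewhere, and these differences were not tested. The parts also differed in level from the members, whose median was 1.64 FPKM, so their counts of calls are not directly comparable.

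The largest decrease was that of *ZNF358* (ENSG00000198816), on the plus strand from 7515292 to 7521026. Its level was 15.99, 15.12 and 14.65 FPKM in TPC-1 and 4.95, 4.63 and 4.76 FPKM in *RRM2*-OE-TPC-1. The groups lay far apart, with a log2 fold change of -1.65 (SE 0.0519, limma adjusted p = 1.31e-07). It is both among the most expressed members and the one that changed most. Of its 100-base exonic stretches 21.7% also occur in a transcript of another gene, and 418 of its exonic bases overlap *AC008878.1* on the same strand, a gene listed at 0.

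*ZNF580* (ENSG00000213015, plus strand, 55635016 to 55643469) stood at 10.9, 10.6 and 9.49 FPKM in TPC-1 and 4.81, 4.25 and 4.64 FPKM in *RRM2*-OE-TPC-1. Its log2 fold change was -1.16 (SE 0.0714, limma adjusted p = 3.22e-06). It shares 407 exonic bases with *ZNF581* and 122 with *CCDC106* on the same strand, so reads of the shared stretches cannot be assigned to one of them. *ZNF581* (ENSG00000171425, 55635459 to 55645622) fell as well, from 17.4, 17.7 and 18.7 FPKM to 9.05, 11.6 and 10.6 FPKM, with a log2 fold change of -0.79 (SE 0.0847, limma adjusted p = 7.34e-05).

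The remaining 2 decreases past both thresholds concerned members of low level. *ZNF546* (ENSG00000187187, plus strand, 39984134 to 40021041) was at 0.778, 0.858 and 0.850 FPKM in TPC-1 and at 0.284, 0.395 and 0.265 FPKM in *RRM2*-OE-TPC-1, from 117 to 130 reads against 37 to 61 reads. Its log2 fold change was -1.18 (SE 0.182, limma adjusted p = 5.97e-04). *ZNF555* (ENSG00000186300, plus strand, 2841435 to 2860484) was at 1.03, 1.03 and 1.10 FPKM in TPC-1 and at 0.380, 0.505 and 0.447 FPKM in *RRM2*-OE-TPC-1. Here the log2 fold change was -1.09 (SE 0.151, limma adjusted p = 3.14e-04). Every *RRM2*-OE-TPC-1 library of both genes lay below every TPC-1 library. Both had entered the test through their TPC-1 libraries, so their calls are not independent of the filter.

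The increases past both thresholds were those of *ZNF738* and *ZNF530*, from few reads. Both had entered the test through their *RRM2*-OE-TPC-1 libraries, so their calls are not independent of the filter. *ZNF738* (ENSG00000172687, plus strand, 21358930 to 21379302) rose from 0.338, 0.487 and 0.594 FPKM in TPC-1 to 1.06, 1.26 and 1.08 FPKM in *RRM2*-OE-TPC-1, with 22 to 37 reads against 60 to 84 reads. The log2 fold change was 1.13 (SE 0.196, limma adjusted p = 1.14e-03). *ZNF530* (ENSG00000183647, plus strand, 57599885 to 57612722) rose from 0.322, 0.391 and 0.525 FPKM to 0.786, 0.919 and 1.15 FPKM, with a log2 fold change of 1.04 (SE 0.209, limma adjusted p = 2.48e-03). TPC-1 replicate 1 was the lowest library of both genes. Without it *ZNF738* was at 0.94 and *ZNF530* at 0.91, and no member was higher past both thresholds. Without *RRM2*-OE-TPC-1 replicate 3 *ZNF530* was at 0.91.

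**Figure D2:**
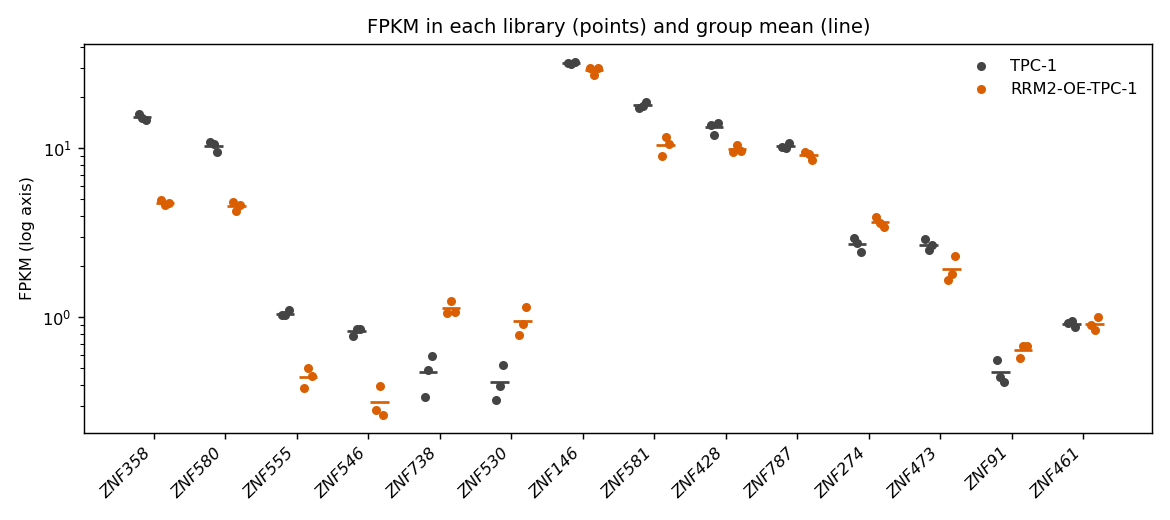
FPKM (y axis, log scale) of 14 members in each of the 3 TPC-1 libraries (grey points) and 3 *RRM2*-OE-TPC-1 libraries (orange points), with the group mean as a line. *ZNF358* falls from a mean of 15.3 to 4.78 FPKM and *ZNF738* rises from 0.473 to 1.13 FPKM, while the points of *ZNF461* overlap.

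The promoters of 5 of these 6 genes are shown because CpG content is one of the features that went with the changes. The promoter table had an entry for all 4 decreases and for *ZNF530*. *ZNF358* and *ZNF580* were lower past both thresholds in all 22 fits tried. Each sequence covers 250 bases before and 50 bases after the RefSeq start on GRCh38.p14, plus strand, written 5′ to 3′ with every CpG in capitals. For *ZNF358*, *ZNF546*, *ZNF555* and *ZNF580* this start lies downstream of the gene start in the deposited table, least for *ZNF555* and most for *ZNF546*. Whether these windows are the promoters used in these cells was not tested.
ZNF358: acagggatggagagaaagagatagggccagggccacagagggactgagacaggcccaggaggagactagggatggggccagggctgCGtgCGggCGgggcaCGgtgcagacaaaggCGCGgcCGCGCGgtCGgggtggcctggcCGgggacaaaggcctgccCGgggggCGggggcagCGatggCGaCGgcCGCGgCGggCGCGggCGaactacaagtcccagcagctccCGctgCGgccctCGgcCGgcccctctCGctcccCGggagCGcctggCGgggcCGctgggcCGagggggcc
ZNF580: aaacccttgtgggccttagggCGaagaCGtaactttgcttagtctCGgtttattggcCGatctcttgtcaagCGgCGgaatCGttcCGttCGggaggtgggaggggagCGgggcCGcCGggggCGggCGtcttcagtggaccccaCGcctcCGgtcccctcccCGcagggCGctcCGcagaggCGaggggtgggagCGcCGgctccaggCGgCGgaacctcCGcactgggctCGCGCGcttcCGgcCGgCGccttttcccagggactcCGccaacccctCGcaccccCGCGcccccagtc
ZNF555: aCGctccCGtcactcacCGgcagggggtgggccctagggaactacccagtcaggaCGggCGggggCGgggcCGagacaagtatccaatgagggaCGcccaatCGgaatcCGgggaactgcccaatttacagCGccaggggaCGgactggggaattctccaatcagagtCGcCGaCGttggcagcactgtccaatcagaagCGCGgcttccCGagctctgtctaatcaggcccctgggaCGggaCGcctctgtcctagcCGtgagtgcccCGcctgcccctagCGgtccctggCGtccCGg
ZNF546: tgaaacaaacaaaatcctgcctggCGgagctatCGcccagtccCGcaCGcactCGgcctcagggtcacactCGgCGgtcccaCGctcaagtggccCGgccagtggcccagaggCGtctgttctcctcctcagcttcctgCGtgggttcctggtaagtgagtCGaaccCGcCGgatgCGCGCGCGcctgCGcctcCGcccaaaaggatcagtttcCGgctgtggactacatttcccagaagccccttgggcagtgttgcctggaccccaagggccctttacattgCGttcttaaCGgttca
ZNF530: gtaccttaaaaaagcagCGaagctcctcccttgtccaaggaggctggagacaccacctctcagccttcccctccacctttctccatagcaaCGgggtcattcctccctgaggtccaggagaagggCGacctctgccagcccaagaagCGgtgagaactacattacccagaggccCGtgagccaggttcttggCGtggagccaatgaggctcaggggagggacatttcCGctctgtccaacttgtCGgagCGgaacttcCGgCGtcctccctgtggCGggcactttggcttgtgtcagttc
The *ZNF358* window (chr19:7515853-7516152) holds 32 CpG and that of *ZNF580* (chr19:55640752-55641051) holds 35, more than 81.1% and 85.9% of the 35116 promoters of the table. The *ZNF555* window (chr19:2841225-2841524) holds 25 CpG and that of *ZNF546* (chr19:39996810-39997109) holds 23, more than 68% and 64.2% of the promoters. The *ZNF530* window (chr19:57599635-57599934) holds 12 CpG, more than 46.9% of them. Promoters of the same kind were found for 217 members, with a median of 20 CpG against 14 over the whole table.

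Among the 5 tested members of highest level all were lower in *RRM2*-OE-TPC-1, by very different amounts. *ZNF146*, which consists almost only of fingers and lacks a KRAB domain, was the most expressed member at 31.9, 31.6 and 32.6 FPKM in TPC-1 and 29.8, 27.3 and 29.8 FPKM in *RRM2*-OE-TPC-1. Its log2 fold change was -0.15 (SE 0.0428, limma adjusted p = 0.0163). *ZNF428* was at 13.8, 12.0 and 14.2 FPKM against 9.52, 10.4 and 9.61 FPKM, with a log2 fold change of -0.43 (SE 0.0711, limma adjusted p = 8.64e-04). *ZNF787* was at 10.14, 10.03 and 10.73 FPKM against 9.54, 9.32 and 8.58 FPKM, with a log2 fold change of -0.17 (SE 0.0547, limma adjusted p = 0.0237). The call of *ZNF787* ended without TPC-1 replicate 3 (limma adjusted p = 0.0831) and without *RRM2*-OE-TPC-1 replicate 3 (limma adjusted p = 0.0800), and with values corrected for transcript GC content it was at 0.01. That of *ZNF146* ended without TPC-1 replicate 3 (limma adjusted p = 0.0560). *ZNF358* and *ZNF581*, described above, complete the 5.

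Members with a known role gave no common picture. *ZNF274*, which brings *SETDB1* to the ends of other zinc finger genes, rose from 2.955, 2.75 and 2.45 FPKM to 3.94, 3.61 and 3.43 FPKM, with a log2 fold change of 0.42 (SE 0.0926, limma adjusted p = 4.21e-03). *ZNF473*, which takes part in processing histone pre-mRNA, fell from 2.89, 2.51 and 2.67 FPKM to 1.68, 1.80 and 2.30 FPKM, with a log2 fold change of -0.47 (SE 0.127, limma adjusted p = 0.0106). Its exons overlap those of *VRK3* on the opposite strand by 223 bases, and whether strand was used in counting is not given in the sources used here. *ZNF91*, a repressor of SVA retrotransposons, was at 0.559, 0.446 and 0.416 FPKM in TPC-1 and 0.572, 0.674 and 0.676 FPKM in *RRM2*-OE-TPC-1. Its groups lay just apart, and the log2 fold change of 0.37 had a limma adjusted p of 0.0876, which was 0.0126 with limma's voom on recovered reads and 0.0251 with no variance trend. *ZNF224*, a repressor of the aldolase A gene, was at 1.73, 1.93 and 2.00 FPKM against 1.66, 1.43 and 1.59 FPKM, a log2 fold change of -0.26 with a limma adjusted p of 0.0561, and 38.6% of its 100-base stretches occur in other genes. Its limma adjusted p lay under the threshold in 7 alternatives, at 0.0214 with voom and 0.0441 without TPC-1 replicate 1 as the extremes. *ZNF304* had a log2 fold change of 0.05 (limma adjusted p = 0.769). *ZNF93*, a repressor of L1 elements, had 1 read in each TPC-1 library and 0 in each *RRM2*-OE-TPC-1 library. *ZNF331*, an imprinted gene, was listed at 0 in all 6 libraries, and *ZNF382* stayed between 0.0265 and 0.0665 FPKM. The smallest change of all was that of *ZNF461*, at 0.927, 0.948 and 0.881 FPKM against 0.905, 0.847 and 1.00 FPKM, with a log2 fold change of -0.003 (limma adjusted p = 0.982).

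Along the chromosome, the members fell into 16 groups when a new group was opened wherever neighbouring starts lay over 1 Mb apart. The groups are named by their first and last member. Over the tested members in order, Spearman's rho of the log2 fold change with position was -0.08 (n = 150), and that of each member with the next one was 0.10 (n = 149). These are descriptions across genes, which share the same 6 libraries. Single stretches nevertheless leaned to one side.

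**Figure D3:**
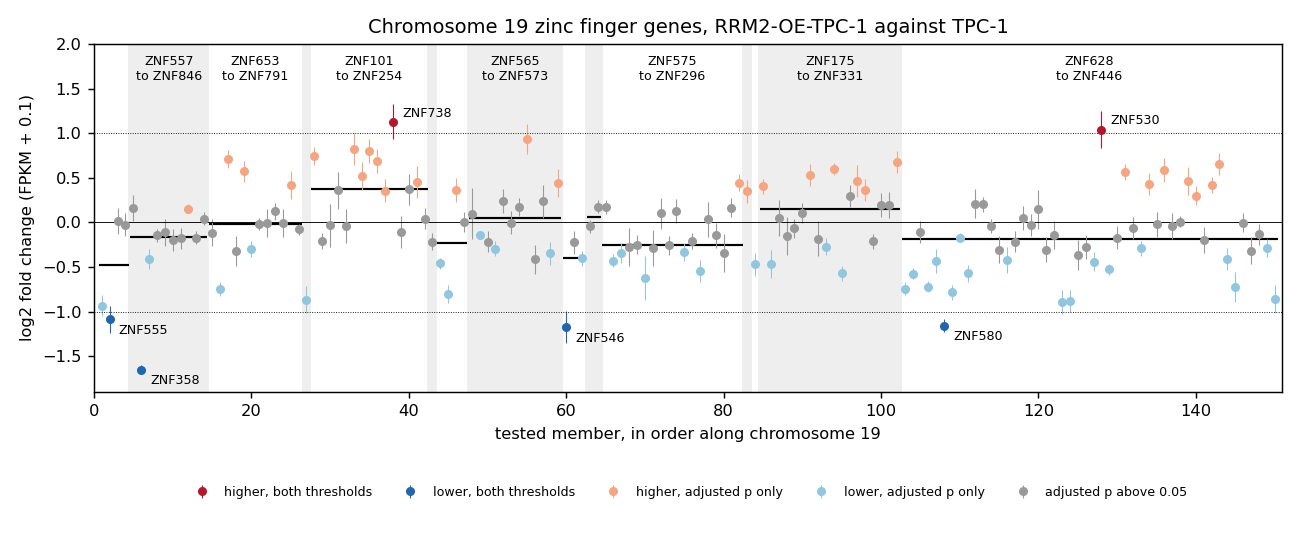
Log2 fold change with its SE (y axis) of each of the 150 tested members in order along chromosome 19 (x axis, rank). Black lines give the median of each position group, shading marks alternate groups and colours give the call. Points of *ZNF101* to *ZNF254* lie mostly above 0 (median 0.37) and those of *ZNF628* to *ZNF446* mostly below (median -0.18).

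In the stretch from *ZNF101* to *ZNF254* (19668796 to 24129961, the region next to the centromere on the short arm) the tested members leaned higher. Of its 37 members 15 were tested, 11 of these were above 0, and the median log2 fold change was 0.37. By the adjusted p 8 were higher and none was lower, where 34.9% of all tested genes were higher and 32.7% lower. Of the protein-coding genes at the members' level, 23.9% were higher and 37.9% lower. The mean log2 level of the 15 was -0.18, -0.03 and -0.004 in TPC-1 and 0.26, 0.33 and 0.37 in *RRM2*-OE-TPC-1, so every *RRM2*-OE-TPC-1 library lay above every TPC-1 library. *ZNF738* and *ZNF91* are among the 15 and had entered the test through their *RRM2*-OE-TPC-1 libraries. The counts, median and means of this stretch are therefore not independent of the filter. The median was 0.37 with a filter on the mean of all 6 libraries and 0.36 with no filter on low values. No other tested protein-coding gene starts in this stretch. Of 6 tested noncoding genes in it 5 were above 0, with a median of 0.34. Noncoding genes here can share exonic bases with members. *AC092279.1* shares 273 with *ZNF254* on the same strand, and *AC011477.3* shares 26 with *ZNF253* on the opposite strand. The 6 need therefore not all be separate from the members. The members here had a median transcript GC content of 37.5%, and the median was 0.35 after correction for GC content. A run of 6 neighbouring tested members carried the stretch, chosen after their values were seen. From *ZNF486* to *ZNF738* (20167228 to 21379302) all 6 tested members of 10 were higher by the adjusted p, with log2 fold changes of 0.36 to 1.13 and a median of 0.74. *ZNF738* belongs to the run, so the run too is not independent of the filter.

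At the far end of the long arm, from *ZNF628* to *ZNF446* (55476332 to 58481230), 48 of 59 members were tested and 35 of these were below 0. The median was -0.18, and by the adjusted p 18 of 48 were lower and 8 higher. The lower share is near the 32.7% of all tested genes and the higher share is below their 34.9%. Of the protein-coding genes at the members' level, 37.9% were lower and 23.9% higher, so the lower share is near theirs too. Past both thresholds were *ZNF580* on the lower and *ZNF530* on the higher side. The mean log2 level of the 48 was 1.16, 1.17 and 1.14 in TPC-1 and 1.00, 0.97 and 0.97 in *RRM2*-OE-TPC-1. The 11 other tested protein-coding genes of the same stretch had a median of -0.06, with 6 of them below 0. A run of decreases, also chosen after its values were seen, lay from *ZNF628* to *ZNF444* (55476332 to 56160893). All 9 tested members there were below 0 and 8 were lower by the adjusted p, with log2 fold changes of -1.16 to -0.11 and a median of -0.58. Their transcripts were rich in GC, at 57.8% to 71.1%. After correction for GC content 6 were lower by the adjusted p, and the median was -0.53. The 5 other tested protein-coding genes between them were *U2AF2*, *NAT14*, *EPN1*, *CCDC106* and *FIZ1*, of which 4 were below 0, with a median of -0.25. Not all of these genes are separate from the members. *CCDC106* shares 122 exonic bases with each of *ZNF580* and *ZNF581* on the same strand, and *FIZ1* shares 192 with *ZNF524* on the opposite strand.

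**Figure D4:**
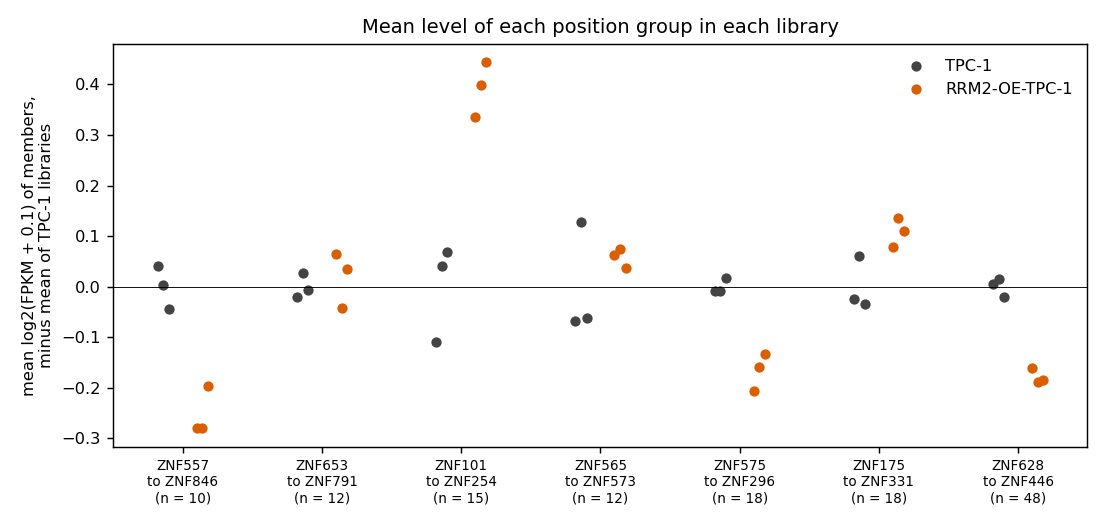
Mean log2(FPKM + 0.1) of the tested members of the 7 position groups with at least 10 tested members, in each library, less the mean of the 3 TPC-1 libraries (y axis). The *RRM2*-OE-TPC-1 points (orange) lie above all TPC-1 points (grey) for *ZNF101* to *ZNF254* and *ZNF175* to *ZNF331*, and below all of them for *ZNF557* to *ZNF846*, *ZNF575* to *ZNF296* and *ZNF628* to *ZNF446*.

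Other large groups followed no common direction. From *ZNF575* to *ZNF296* (43525497 to 45076588) the median of 18 tested members of 24 was -0.25, with 12 below 0, 5 lower and 1 higher by the adjusted p, and the 18 other tested protein-coding genes there had a median of -0.14. From *ZNF175* to *ZNF331* (51571298 to 53580269) the median of 18 tested members of 40 was 0.15, with 11 above 0, 3 lower and 6 higher. In neither group did the calls on the side of the median stand out from the 32.7% of all tested genes that were lower and the 34.9% that were higher. Leaving out TPC-1 replicate 3 brought the median of *ZNF175* to *ZNF331* to 0.10, and leaving out *RRM2*-OE-TPC-1 replicate 1 to 0.24. From *ZNF557* to *ZNF846* (7069444 to 9793180) 7 of 10 tested members of 16 were below 0, with a median of -0.16 that includes *ZNF358*, and 16 of the 23 other tested protein-coding genes there were below 0 as well. The groups *ZNF653* to *ZNF791* and *ZNF565* to *ZNF573*, with 12 tested members each, had medians of -0.01 and 0.05. The first turned to 0.02 without *RRM2*-OE-TPC-1 replicate 2 and the second to -0.08 without TPC-1 replicate 3. The other 9 groups held at most 4 tested members each. The single tested member *ZNF333* was at -0.86, and all 3 tested members from *ZNF546* to *ZNF780A* were below 0. *ZNF546* had entered the test through its TPC-1 libraries alone, so its place below 0 is not independent of the filter.

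Among members short of a log2 fold change of 1, the following were picked after their values were seen. *ZNF419* and *ZNF773* are neighbours (57487711 to 57496097 and 57499915 to 57518404). *ZNF419* was at 1.47, 1.31 and 1.15 FPKM in TPC-1 and 0.674, 0.605 and 0.690 FPKM in *RRM2*-OE-TPC-1, with a log2 fold change of -0.89 (SE 0.138, limma adjusted p = 5.77e-04). *ZNF773* was at 1.54, 1.44 and 1.345 FPKM against 0.694, 0.759 and 0.754 FPKM, or -0.88 on the same scale (SE 0.119, limma adjusted p = 2.65e-04). Few of their 100-base stretches occur in other genes, 7.48% for *ZNF419* and 4.65% for *ZNF773*. *ZNF554* (2819874 to 2835773) lies next to *ZNF555* and stood at 1.91, 2.25 and 2.21 FPKM against 0.945, 1.15 and 1.10 FPKM, a difference of -0.93 (SE 0.118, limma adjusted p = 1.84e-04). The other 2 tested members of that small group, *ZNF57* and *ZNF77*, were at 0.02 and -0.03 and did not pass the test. On the higher side, *ZNF850* was at 0.282, 0.341 and 0.328 FPKM against 0.740, 0.699 and 0.656 FPKM, at 0.94 (SE 0.167, limma adjusted p = 1.28e-03), the largest increase that missed the fold threshold. It entered the test through its *RRM2*-OE-TPC-1 libraries alone, and its tested neighbours *ZNF567* and *ZNF420* were at 0.17 and -0.41 and did not pass the test.

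Transcript GC content, which the rule did not use, went with the changes. Spearman's rho of the log2 fold change with GC content was -0.26 over the 150 tested members. In 3 GC classes of 50 members each (34.1% to 40.9%, 41.1% to 45.7% and 45.8% to 71.1%) the medians were -0.02, -0.02 and -0.21. In the top class 20 members were lower and 5 higher by the adjusted p, and in the bottom class 7 were lower and 12 higher. Beside the 32.7% lower and 34.9% higher of all tested genes, the lower calls of the top class were more frequent and the other 3 counts less frequent. Of the 1813 protein-coding genes at the members' level, 37.9% were lower and 23.9% higher. The lower calls of the top class and the higher calls of the bottom class were near these shares. Other tested protein-coding genes in the same GC ranges had medians of 0.04, 0.09 and 0.01, all above 0. Over all tested genes the correlation was -0.07.

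**Figure D5:**
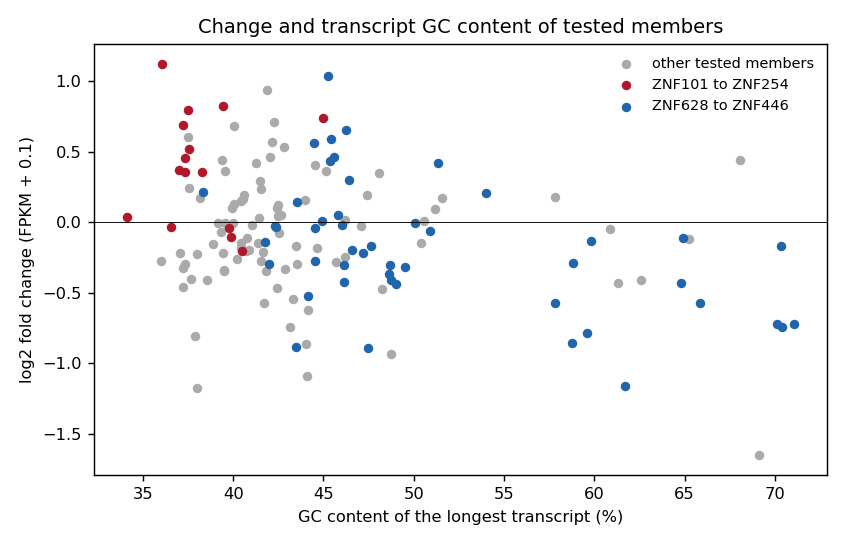
Log2 fold change (y axis) against GC content of the longest transcript (x axis, %) for the 150 tested members, with *ZNF101* to *ZNF254* in red and *ZNF628* to *ZNF446* in blue. Members of low GC content lie on both sides of 0, and most of the few at the right end, up to 71.1%, lie below 0.

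CpG count in the promoter went the same way, with a rho of -0.27 over the 135 tested members that had an entry. In 3 classes of 45 by CpG count the medians were -0.01, -0.12 and -0.21, and in the top class (24 to 40 CpG, that of *ZNF358*, *ZNF580* and *ZNF555*) 19 were lower and 5 higher by the adjusted p. In the bottom class (2 to 17 CpG, that of *ZNF530*) 6 were lower and 11 higher. Here too the lower calls of the top class were above the 32.7% of all tested genes, and the higher calls of both classes were below their 34.9%. Beside the 37.9% lower and 23.9% higher of protein-coding genes at the members' level, the excess in the top class was smaller. The higher calls of the bottom class were near that higher share. Mean FPKM had a rho of -0.17, coding length one of 0.09 and gene length one of 0.09. These features go together within the family and share the same libraries, and their separate parts were not tested.

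Genes that act with KRAB zinc finger proteins, or at the heterochromatin they call up, were mixed. All 25 genes of this list were tested, with a median log2 fold change of 0.01, and 7 were lower and 9 higher by the adjusted p, near the 32.7% and 34.9% of all tested genes. *TRIM28* rose from 87.9 ± 4.04 to 116 ± 3.80 FPKM as means ± SD of n = 3 libraries per group. It changed by 0.40 on the log2 scale (SE 0.0434, limma adjusted p = 7.38e-05). *SETDB1* fell from 8.94 ± 0.244 to 6.29 ± 0.429 FPKM, n = 3 in each group, which is -0.50 on the log2 scale (SE 0.0603, limma adjusted p = 1.35e-04). Past both thresholds was *SUV39H1* alone, a histone methyltransferase of constitutive heterochromatin, at 2.22 ± 0.231 FPKM in TPC-1 and 5.36 ± 0.471 FPKM in *RRM2*-OE-TPC-1, n = 3 in each group. That gene was 1.24 higher on the log2 scale (SE 0.1003, limma adjusted p = 1.44e-05).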

How the data were processed

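RNA of 3 TPC-1 and 3 *RRM2*-OE-TPC-1 libraries was sequenced. Per the submitters' processing notes, reads were aligned with HISAT2 2.0.5 to GRCh38.p14, counted with featureCounts 1.5.0 and compared with DESeq2 1.20.0. The authors deposited FPKM, which are counts divided by gene length and by a library's read number. Reads were recovered by reversing that division, and 100% of values came out whole within 0.01. All 58735 gene positions were those of GENCODE 29, from which GC content, coding length and exon overlaps were also taken. Promoters came from RefSeq.

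Genes with at least 0.5 FPKM and 10 reads in 3 libraries (13621) were tested on log2(FPKM + 0.1) with limma 3.58.1 in R 4.3.3 (lmFit, eBayes with trend, two-sided, Benjamini-Hochberg over all tested genes). The main test was set on FPKM because that is the deposited unit, and limma's voom on the recovered reads was an alternative fit. The procedure was checked on simulated data. Python 3.11.15, numpy 2.4.6, pandas 2.3.3 and matplotlib 3.10.9 were used for the rest. Correlations and medians over members are descriptions with no test.

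The members, lists and settings were chosen with earlier results of these data known. Genes named were the largest decreases and increases past both thresholds with groups apart and at least 50 mean reads, the 5 members of highest level, 8 members of known role, the smallest change, *RRM2*, *TRIM28*, *SETDB1* and corepressor genes past both thresholds. Other genes were picked after their values were seen. Protein sequences, and with them finger and KRAB counts, were not used here.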

Additional observations from a re-analysis of the deposited data

How the results depend on the processing

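*ZNF358* and *ZNF580* remained past both thresholds in all 22 fits, and *ZNF546* and *ZNF555* in all fits that tested them but that with a pseudocount of 1. Over the 16 named members tested, 307 of 332 values under the alternatives kept their direction and their side of an adjusted p of 0.05. *ZNF787* lost its call in 5 settings besides the GC correction, among them no filter (limma adjusted p = 0.0529) and the replicate block (limma adjusted p = 0.0552), and *ZNF224* gained one in 7, among them the GC correction (limma adjusted p = 0.0266). Members past both thresholds were 4 lower and 2 higher, and 2 and 0 with a pseudocount of 1, 3 and 1 with an FPKM minimum of 1, 5 and 1 with correction for GC content and gene length, 4 and 1 with scaling to library totals, 1 and 2 among members without an exon overlap, and 4 and 0 in a test of a change above 1.5-fold. By adjusted p alone they were 41 and 31, 29 and 20 with no filter on low values, and 19 and 18 without an exon overlap. A filter on the mean of all 6 libraries, added after seeing the data, gave 41 and 31.

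The median of the members, -0.09, was -0.15 with an FPKM minimum of 1, -0.12 with the GC and length correction, -0.13 with gene length alone, -0.056 with a pseudocount of 1, -0.15 with library totals (which moved all genes to -0.05) and -0.064 without an exon overlap. The median of *ZNF101* to *ZNF254* was 0.69 with an FPKM minimum of 1 and 0.22 with a pseudocount of 1. The FPKM minimum of 1 left 118 members and could be met through the libraries of one group alone. *ZNF738*, for example, met it in *RRM2*-OE-TPC-1 only. The medians under that minimum, 0.69 among them, are therefore not free of selection by the change itself. That of *ZNF175* to *ZNF331* was 0.20 with an FPKM minimum of 1, 0.10 with the mean filter, 0.063 with no filter, 0.079 with a pseudocount of 1, 0.10 with library totals, 0.10 with trimmed mean factors and -0.14 with groups separated by 2 Mb, which joins it to its neighbours. That of *ZNF575* to *ZNF296* was -0.29 with GC and length, -0.29 with GC alone, -0.15 with a pseudocount of 1 and -0.31 with library totals. That of *ZNF628* to *ZNF446* was -0.21 with an FPKM minimum of 1, -0.25 with GC and length, -0.22 with GC alone, -0.24 with length alone, -0.14 with a pseudocount of 1, -0.24 with library totals, and -0.14 with groups separated by 0.5 or 2 Mb. That of *ZNF565* to *ZNF573* turned to -0.18 with an FPKM minimum of 1, -0.036 with GC and length, -0.0080 with length alone, -0.10 with no filter and -0.0037 with library totals. *ZNF787* turned to 0.0087 with the GC correction, and *ZNF304* to -0.022 with GC and length and -0.0072 with library totals. GC alone, length alone and the mean filter were added after seeing the data. The cause of these moves was not tested.

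Leaving out 1 library at a time gave 4 to 5 lower and 0 to 2 higher members past both thresholds, 33 to 42 lower and 22 to 26 higher by adjusted p, and a median of -0.12 to -0.072. The group medians ranged from 0.37 to 0.45 (*ZNF101* to *ZNF254*), 0.10 to 0.24 (*ZNF175* to *ZNF331*), -0.25 to -0.20 (*ZNF575* to *ZNF296*), -0.21 to -0.14 (*ZNF628* to *ZNF446*), -0.082 to 0.11 (*ZNF565* to *ZNF573*) and -0.078 to 0.017 (*ZNF653* to *ZNF791*). *ZNF304* ranged from -0.028 to 0.17 and *ZNF461* from -0.061 to 0.047. Libraries with the same replicate number did not deviate together, with correlations of -0.0105, -0.006 and -0.055. With 3 libraries per group this cannot show that the numbers carry no pairing. A fit with the replicate block gave 4 lower and 2 higher members past both thresholds and 35 and 25 by adjusted p.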
